A study of Mus musculus with 9 samples.

Results

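The genes described here are 10 targets and feedback genes of the Wnt pathway, picked by symbol: *Axin2*, *Rnf43*, *Znrf3*, *Nkd1*, *Notum*, *Wnt3*, *Ctnnb1*, *Tcf7*, *Tcf7l2* and *Myc*. Each of the 10 symbols was found among the 54838 gene identifiers of the deposited tables. Of these 10 genes, 9 reached 1 FPKM in at least 2 of the 7 RNA-seq libraries and were tested among 12702 such genes, and *Nkd1* did not. FPKM are fragments per kilobase of transcript, scaled to all mapped fragments of the library, so levels can be compared between genes. *Wnt3* reached 1 FPKM in the 3 4-OHT libraries alone, and *Notum* in the 4 EtOH libraries alone. Each of these entered the test through the libraries in which it was high, so counts over the 9 tested genes describe them and support nothing.

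The organoids were grown from small intestinal crypts of male Vil-CreERT2;*Mettl3* fl/fl mice on a C57BL/6 background, 2 to 4 months old. They were kept in Matrigel with EGF, Noggin and R-spondin, and no Wnt protein is named among the additives. In these cells the Villin promoter drives a Cre that 4-OHT (4-hydroxytamoxifen) activates, and this Cre excises the floxed part of *Mettl3*, which encodes the catalytic subunit of the complex that writes N6-methyladenosine on RNA. All libraries carry the same alleles, and no group without Cre received 4-OHT, so effects of 4-OHT or active Cre and of the lost *Mettl3* segment cannot be told apart. The group EtOH DMSO (2 libraries) received the solvent EtOH for 2 days and the solvent DMSO for 5 days. EtOH Nec-1 (2 libraries) received EtOH for 2 days and, for 5 days, Nec-1 (necrostatin-1, an inhibitor of the kinase RIPK1), whose dose is 5 µM in a figure legend of the study and 10 µM in its methods. The group 4-OHT DMSO (2 libraries) received 0.5 µM 4-OHT for 2 days and DMSO for 5 days. A single library, 4-OHT Nec-1, combined 4-OHT with Nec-1 for the same times. The labels do not say whether replicates are separate cultures or animals, so the p-values measure the spread between these libraries and no more.

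*Mettl3* (ENSMUSG00000022160) is the gene that marks the treatment, and no library labelled 4-OHT was lower in it than any library labelled EtOH. Its FPKM was 2.70 and 2.71 with EtOH DMSO, 2.41 and 2.47 with EtOH Nec-1, 3.72 and 4.14 with 4-OHT DMSO, and 3.36 with 4-OHT Nec-1. All 3 values with 4-OHT lay above all 4 with EtOH. On log2(FPKM + 1) the 4-OHT DMSO libraries were higher by 0.41 (SE 0.10, limma, Benjamini-Hochberg adjusted p = 0.0231), and over 15 alternative settings the adjusted p ran from 0.0180 to 0.0914, with 8 of them above the threshold of 0.05. These 8 are both scalings, the fit on the 4 libraries compared, and the fits without EtOH DMSO replicate 1 or 2, EtOH Nec-1 replicate 1 or 2, or 4-OHT DMSO replicate 2. One value covers the whole gene, so excision of a part cannot be read from it, and each direction below rests on the labels. The 6 epithelial markers checked (*Epcam*, *Cdh1*, *Krt8*, *Krt18*, *Krt19* and *Vil1*) all reached 1 FPKM, with *Krt8* at up to 1771, whereas neither of 2 endothelial markers did and 1 of 7 fibroblast markers (*Vim*, up to 1.08) and 1 of 5 immune markers (*Itgam*, up to 2.45) did.

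Wnt proteins bind Frizzled receptors and LRP co-receptors, which stops a complex of Axin, APC, GSK3 and casein kinase from marking β-catenin for destruction, so that β-catenin enters the nucleus and works with TCF and LEF factors. Several of the genes this switches on act back on the pathway as brakes, at the ligand, at the receptor and in the destruction complex. In the small intestine Wnt signalling keeps crypt stem cells dividing and supports Paneth cells, which sit beside them, make antimicrobial defensins and are an epithelial source of *Wnt3*.

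In the group with solvents alone, EtOH DMSO, the levels of the 10 genes spread from 109 FPKM to under 0.1 FPKM. *Ctnnb1* stood first at 109 ± 2.50 (mean ± SD of FPKM, n = 2, as for the values that follow), ahead of *Myc* at 21.1 ± 1.07. Next came *Axin2* at 8.35 ± 1.35 and *Rnf43* at 7.31 ± 0.681, which did not differ beyond their spread. *Tcf7l2* at 4.48 ± 0.929 and *Tcf7* at 3.53 ± 0.259 followed, close but without overlap (5.13 and 3.82 for *Tcf7l2*, 3.72 and 3.35 for *Tcf7*). At the low end were *Notum* at 1.57 ± 0.351, *Znrf3* at 1.05 ± 0.0747, *Wnt3* at 0.894 ± 0.0668 and *Nkd1* at 0.0631 ± 0.0196. The plot of levels by library shows *Ctnnb1* in the first place and *Myc* in the second in each of the 7 libraries. *Notum* changed its place most: in 4-OHT DMSO it stood at 0.107 ± 0.120, within the spread of *Nkd1* at 0.118 ± 0.0382.

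**Figure D1:**
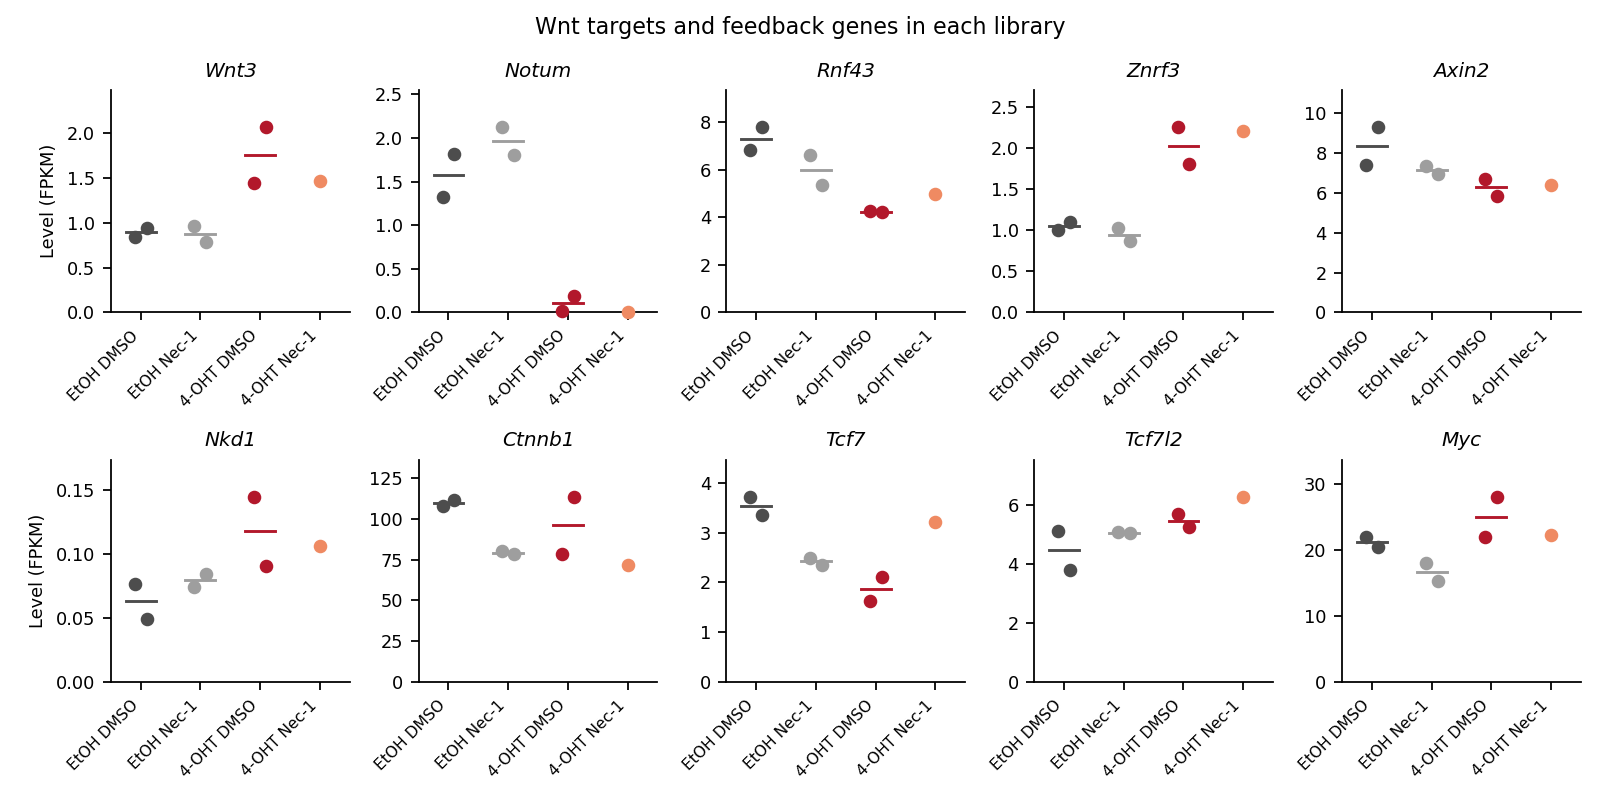
FPKM of each of the 10 genes in each of the 7 libraries, 1 point per library, with a bar at the mean of each group of 2 and an axis of its own for each gene. *Notum* lay at 1.33 or more in the EtOH libraries and at 0.192 or less in the 4-OHT libraries, while *Znrf3* lay at 1.80 or more in the 4-OHT libraries and at 1.10 or less in the EtOH libraries.

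The comparison of 4-OHT DMSO with EtOH DMSO asks what follows from 4-OHT without Nec-1. Of all tested genes, 5237 passed the threshold (41.2%), 3117 of them higher in 4-OHT (24.5%) and 2120 lower (16.7%). That balance moves with the scaling between libraries. The median log2 difference of all tested genes was 0.08, median centring shifted it by −0.16 and upper quartile scaling by −0.13, and the calls then split into 2213 higher and 3187 lower, or 2232 higher and 2976 lower. Of the 9 tested Wnt genes 5 passed, which is near the 41.2% of all genes, and their median log2 difference was −0.21. They were *Znrf3* and *Wnt3* on the higher side (2 of 9, beside 24.5%) and *Rnf43*, *Notum* and *Tcf7* on the lower side (3 of 9, beside 16.7%), so the 9 genes did not move one way. Under median centring 0 of 9 were higher and 4 lower (*Axin2*, *Rnf43*, *Notum* and *Tcf7*), and under upper quartile scaling 1 was higher (*Znrf3*) and the same 4 lower, so the calls of rises depend on the scaling and those of *Rnf43*, *Notum* and *Tcf7* do not. By groups that do not overlap, 4 of 9 were higher (*Znrf3*, *Wnt3*, *Tcf7l2* and *Myc*, beside 40.7% of all genes) and 4 of 9 were lower (*Axin2*, *Rnf43*, *Notum* and *Tcf7*, beside 30.8%). With so large a share of all genes past the threshold, none of these counts is a result about the Wnt genes as a group. Without EtOH DMSO replicate 2 the count was 2 of 9, *Notum* and *Tcf7*, beside 31.1% of all genes in that fit.

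**Figure D2:**
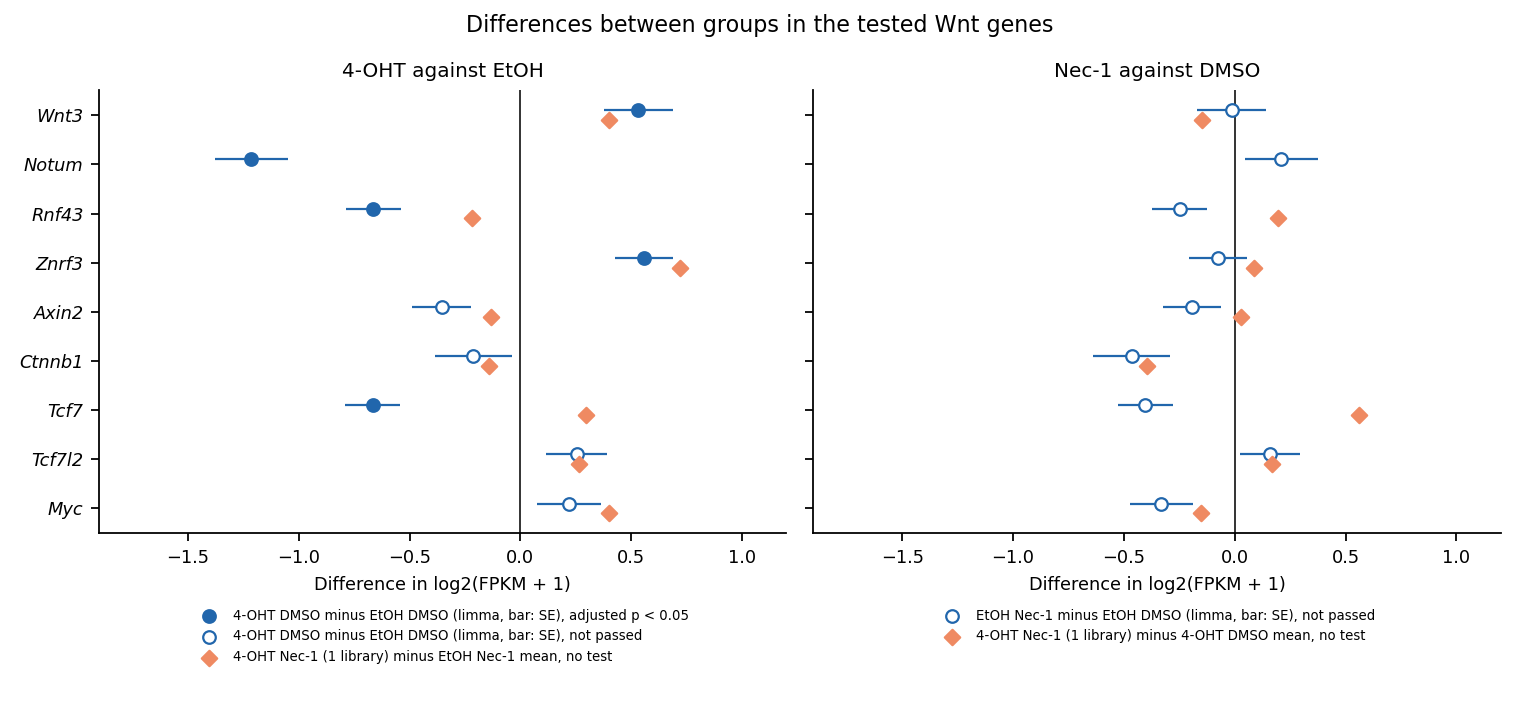
Difference in log2(FPKM + 1) from EtOH DMSO for each of the 9 tested genes, in 4-OHT DMSO (left) and in EtOH Nec-1 (right), as circles with bars of 1 SE from limma, filled where the adjusted p is under 0.05 (5 genes on the left and 0 on the right). Diamonds give the single 4-OHT Nec-1 library against the EtOH Nec-1 mean (left) and the 4-OHT DMSO mean (right), without a test and without *Notum*, which is listed at 0 there.

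*Wnt3* (ENSMUSG00000000125, chr11:103774175-103818021 of GRCm38.p6) encodes a Wnt ligand that Paneth cells make. Its FPKM was 0.847 and 0.942 with EtOH DMSO, 0.970 and 0.785 with EtOH Nec-1, 1.44 and 2.07 with 4-OHT DMSO, and 1.47 with 4-OHT Nec-1. All 3 4-OHT libraries lay above all 4 EtOH libraries. The rise in 4-OHT DMSO was 0.53 on the log2 scale (SE 0.16, limma, Benjamini-Hochberg adjusted p = 0.0421) and passed in 4 of 14 alternative settings, with an adjusted p from 0.0253 to 0.143. It no longer passed under upper quartile scaling, median centring, the replicate number as a block, no filter on low values or the 4 compared libraries alone, or without any 1 of EtOH DMSO replicate 1 (0.143), EtOH DMSO replicate 2 (0.106), EtOH Nec-1 replicate 1 (0.0770), EtOH Nec-1 replicate 2 (0.0766) and 4-OHT DMSO replicate 2 (0.136). Its direction held in all 14, with a log2 difference from 0.37 to 0.88, so this is a call at the edge of the threshold. In bulk organoids a change in the number of cells of a type cannot be told apart from a change in RNA per cell: more cells and more RNA per cell can give the same value. The other 18 of the 19 Wnt ligand genes stayed below 1 FPKM in every library, 4 of them listed at 0 throughout.

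*Notum* (ENSMUSG00000042988, chr11:120653788-120661193) encodes a secreted enzyme that removes the lipid from Wnt proteins and so inactivates them. Its FPKM was 1.33 and 1.82 with EtOH DMSO, 2.12 and 1.81 with EtOH Nec-1, and 0.0223 and 0.192 with 4-OHT DMSO, and it was listed at 0 in 4-OHT Nec-1. The gene thus went from a low but measured level in all 4 EtOH libraries to near 0 in all 3 4-OHT libraries. It fell by 1.21 on the log2 scale (SE 0.16, limma, Benjamini-Hochberg adjusted p = 0.00394) and passed in 14 of 14 alternative settings. Of the 9 tested genes it was the only 1 past an added threshold of 1 log2 unit, beside 10.4% of all tested genes. The size of the fall depends on the pseudocount, and over the alternatives the log2 difference ran from −3.13 to −1.08. Of the 13 secreted inhibitors listed, which include the Dkk and Sfrp families, *Notum* was the only one to reach 1 FPKM in any of the 7 libraries.

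*Rnf43* (ENSMUSG00000034177, chr11:87663087-87735539) and *Znrf3* (ENSMUSG00000041961, chr11:5276329-5444847) encode related membrane ubiquitin ligases that remove Frizzled receptors from the cell surface, and R-spondin, which the medium supplies, blocks them. *Rnf43* FPKM was 6.83 and 7.79 with EtOH DMSO, 6.64 and 5.38 with EtOH Nec-1, 4.26 and 4.21 with 4-OHT DMSO, and 4.995 with 4-OHT Nec-1. All 3 4-OHT libraries lay below all 4 EtOH libraries. *Rnf43* fell by 0.66 on the log2 scale in 4-OHT DMSO (SE 0.12, limma, Benjamini-Hochberg adjusted p = 0.0106), and of 15 alternative settings, with an adjusted p from 0.00496 to 0.0507, it missed the threshold in 1, without EtOH DMSO replicate 2.

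*Znrf3* went the other way. Its FPKM was 0.998 and 1.10 with EtOH DMSO, 1.02 and 0.873 with EtOH Nec-1, 2.25 and 1.80 with 4-OHT DMSO, and 2.20 with 4-OHT Nec-1, so that all 3 4-OHT libraries lay above all 4 EtOH libraries. The rise in 4-OHT DMSO was 0.56 on the log2 scale (SE 0.13, limma, Benjamini-Hochberg adjusted p = 0.0214), and from 0.40 to 0.88 over the alternatives. It passed in 9 of 14 alternative settings, with an adjusted p from 0.0144 to 0.0834, and missed the threshold under median centring (0.0528), with no filter on low values (0.0590), and without EtOH DMSO replicate 1 (0.0834), EtOH DMSO replicate 2 (0.0605) or 4-OHT DMSO replicate 1 (0.0747).

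The balance of these ligase genes, a ratio that scaling between libraries cannot move, was computed after their values were seen and was not tested. *Rnf43* FPKM divided by *Znrf3* FPKM was 6.84 and 7.06 with EtOH DMSO, 6.50 and 6.16 with EtOH Nec-1, 1.89 and 2.34 with 4-OHT DMSO, and 2.27 with 4-OHT Nec-1. No EtOH library came near a 4-OHT library in this ratio, with or without Nec-1. Their summed FPKM, from 6.01 to 8.90, overlapped between EtOH and 4-OHT libraries, as the plot of ratio and sum shows.

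**Figure D3:**
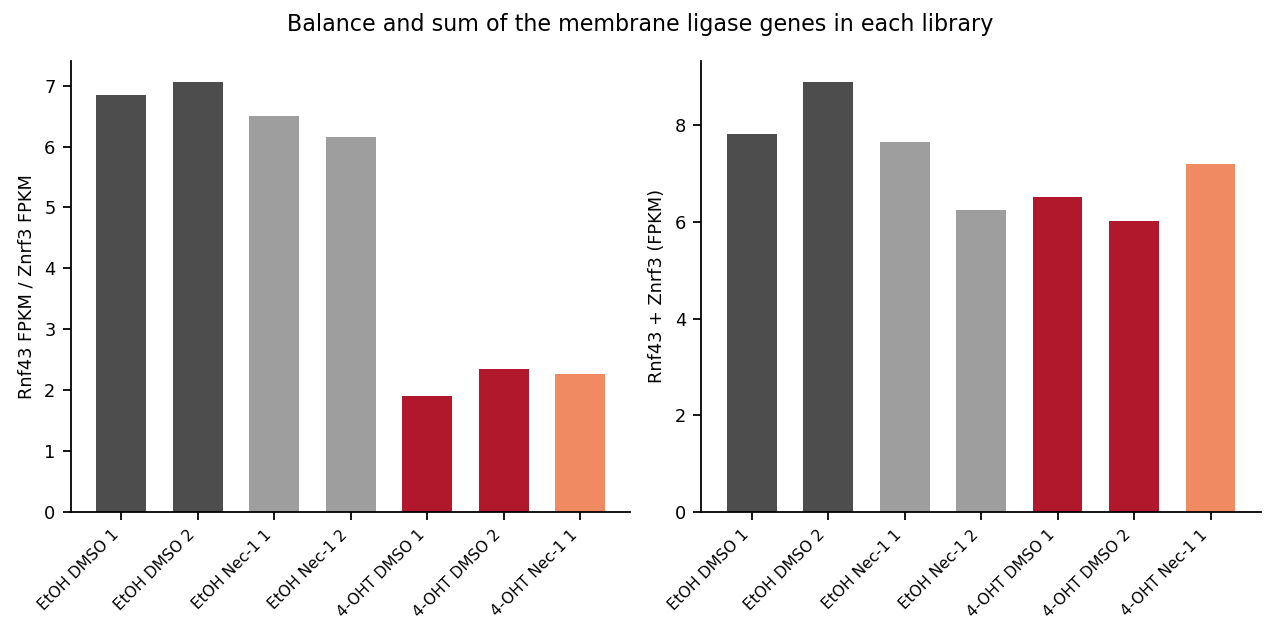
*Rnf43* FPKM divided by *Znrf3* FPKM (left) and their summed FPKM (right), 1 bar per library. The 4 EtOH libraries lie between 6.16 and 7.06 in the ratio and the 3 4-OHT libraries between 1.89 and 2.34, whereas the sums overlap.

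*Axin2* (ENSMUSG00000000142, chr11:108917828-108950783) encodes a scaffold of the destruction complex and is the gene most often read as a measure of Wnt signalling. Its FPKM was 7.39 and 9.31 with EtOH DMSO, 7.33 and 6.96 with EtOH Nec-1, 6.71 and 5.84 with 4-OHT DMSO, and 6.42 with 4-OHT Nec-1. The 3 4-OHT libraries were the lowest of the 7, although 4-OHT DMSO replicate 1 lay close to EtOH Nec-1 replicate 2. The log2 difference in 4-OHT DMSO was −0.36 (SE 0.13, limma, Benjamini-Hochberg adjusted p = 0.0803) and did not pass. Over 15 alternative settings the adjusted p ran from 0.0207 to 0.249, and 3 passed: median centring, upper quartile scaling, and the fit without EtOH DMSO replicate 1 (0.0466). *Nkd1* (ENSMUSG00000031661, chr8:88521342-88594887), whose product binds Dishevelled and damps the signal, ran from 0.0492 to 0.145 FPKM, below the filter in every library. The 3 4-OHT libraries (0.0907 to 0.145) lay above the 4 EtOH libraries (0.0492 to 0.0848). It was tested only in the alternative with no filter on low values, where its log2 difference in 4-OHT DMSO was 0.072 (SE 0.031, limma, Benjamini-Hochberg adjusted p = 0.238) and did not pass.

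Among the nuclear genes, *Ctnnb1* (ENSMUSG00000006932, chr9:120933400-120960507) encodes β-catenin itself, which also holds cells together at cadherin junctions. Its FPKM was 108 and 111 with EtOH DMSO, 79.9 and 78.1 with EtOH Nec-1, 78.4 and 113 with 4-OHT DMSO, and 71.4 with 4-OHT Nec-1. The 4-OHT DMSO libraries disagreed, replicate 2 lying with EtOH DMSO and replicate 1 with EtOH Nec-1. The log2 difference between 4-OHT DMSO and EtOH DMSO was −0.21 (SE 0.17, limma, Benjamini-Hochberg adjusted p = 0.368). Without 4-OHT DMSO replicate 2 it was −0.48 (adjusted p = 0.0141) and without 4-OHT DMSO replicate 1 it was 0.05 (adjusted p = 0.677), the lowest and the highest adjusted p over 15 alternatives, so this comparison rests on single libraries. FPKM give the messenger RNA, and β-catenin is regulated through the stability of its protein.

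*Tcf7* (ENSMUSG00000000782, chr11:52246527-52283383) and *Tcf7l2* (ENSMUSG00000024985, chr19:55741797-55933659) encode DNA-binding partners of β-catenin, the first of them also a target of the pathway. *Tcf7* FPKM was 3.72 and 3.35 with EtOH DMSO, 2.49 and 2.36 with EtOH Nec-1, 1.63 and 2.101 with 4-OHT DMSO, and 3.21 with 4-OHT Nec-1. *Tcf7* was thus low in 4-OHT DMSO and intermediate in EtOH Nec-1, and the library that received both agents lay near EtOH DMSO. *Tcf7* fell by 0.67 on the log2 scale in 4-OHT DMSO (SE 0.12, limma, Benjamini-Hochberg adjusted p = 0.0105), and of 15 alternatives, with an adjusted p from 0.00600 to 0.0523, it missed the threshold in 1, without EtOH DMSO replicate 1. *Tcf7l2* FPKM was 5.13 and 3.82 with EtOH DMSO, 5.09 and 5.05 with EtOH Nec-1, 5.70 and 5.27 with 4-OHT DMSO, and 6.29 with 4-OHT Nec-1. The 4-OHT DMSO libraries were higher than both EtOH DMSO libraries, of which replicate 2 was the lowest of the 7. The log2 difference of *Tcf7l2* was 0.25 (SE 0.14, limma, Benjamini-Hochberg adjusted p = 0.191). Among 15 alternatives, with an adjusted p from 0.0471 to 0.642, only the fit without EtOH DMSO replicate 1 passed.

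*Myc* (ENSMUSG00000022346, chr15:61985341-61990361) encodes a transcription factor that promotes growth and is a target of the pathway in crypts. Its FPKM was 21.9 and 20.4 with EtOH DMSO, 18.0 and 15.3 with EtOH Nec-1, 21.9 and 28.0 with 4-OHT DMSO, and 22.2 with 4-OHT Nec-1. The 4-OHT DMSO replicate 1 library and EtOH DMSO replicate 1 were level to 3 digits, so that their groups only just did not overlap. The log2 difference was 0.22 (SE 0.14, limma, Benjamini-Hochberg adjusted p = 0.267) and passed in 0 of 15 alternatives, with an adjusted p from 0.0685 to 0.784.

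Of the 10 genes, 6 lie on chromosome 11 (60%), beside 1005 of 11898 tested genes with a chromosome in the RefSeq table (8.45%). These 6 are *Axin2*, *Rnf43*, *Znrf3*, *Notum*, *Wnt3* and *Tcf7*, which include all 5 that passed in 4-OHT DMSO, 2 of them higher and 3 lower. The share of all chromosome 11 genes that passed was not counted. *Notum* and *Wnt3* entered the test through the libraries in which they were high. The 10 genes were picked by symbol, so these counts describe the list, and a part of the chromosome was not tested.

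The letters that TCF factors bind were looked for in the 250 bases before each start listed for a gene in the RefSeq table, because several of these genes are known targets of TCF factors. The motifs searched were CTTTGAT and CTTTGTT, on both strands. Of 32851 windows of this length in the RefSeq table (GRCm38.p6), 3.21% held the first, 5.03% the second and 8.06% either. The table had 11 windows for 7 of the 10 genes, and none for *Znrf3*, *Notum* and *Myc*. Such a start can lie inside the span given above for the gene, as those of *Axin2* and *Nkd1* do. A single window of the 11 held a motif, at the second start listed for *Tcf7l2*, also inside its span (chr19:55895071-55895320, plus strand), where CTTTGTT begins 14 bases before the start. Of the 13 other Wnt genes described further on, 9 had windows, 12 in all, and 1 of the 12 held a motif. This is the window of *Sp5*, a target gene, shown here because it held both motifs (chr2:70474673-70474922, plus strand), beginning 222 and 104 bases before the start. Capitals mark the motifs, on the strand of the gene or as their reverse complement.
Tcf7l2: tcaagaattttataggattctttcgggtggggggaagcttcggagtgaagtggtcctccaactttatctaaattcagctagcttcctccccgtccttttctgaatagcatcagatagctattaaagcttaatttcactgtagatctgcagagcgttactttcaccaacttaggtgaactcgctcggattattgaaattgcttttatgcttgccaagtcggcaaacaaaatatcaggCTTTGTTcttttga
Sp5: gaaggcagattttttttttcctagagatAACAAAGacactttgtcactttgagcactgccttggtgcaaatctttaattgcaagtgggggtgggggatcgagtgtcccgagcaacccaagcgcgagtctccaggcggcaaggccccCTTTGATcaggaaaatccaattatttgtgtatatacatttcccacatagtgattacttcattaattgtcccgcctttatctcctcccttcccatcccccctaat
A match is a description of letters and not a binding site, and no match says only that these letters are not in this window.

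Around the 10 genes, a list of 112 Wnt pathway genes by role was read in the same way, of which 63 reached the filter. Leaving out the 10 genes, 54 of 102 were tested, and 15 were higher in 4-OHT DMSO (27.8%, beside 24.5% of all tested genes) and 6 lower (11.1%, beside 16.7%), with a median log2 difference of 0.22. That split turns with the scaling, to 9 higher and 13 lower under median centring and 10 higher and 11 lower under upper quartile scaling, so the counts by role that follow hold for the deposited scaling. They describe short lists, beside the same shares of all genes, and set no role apart. Genes given by role with a log2 difference were the largest called rises and falls, up to 2 each, with 1 direction in every library pairing. Their calls, and their gap between 4-OHT DMSO and EtOH DMSO, follow from that choice. Neither gene needed for Wnt secretion passed, with adjusted p of 0.106 for *Porcn* and 0.302 for *Wls* (limma, Benjamini-Hochberg). None of the 4 R-spondin genes reached 1 FPKM, and *Rspo1*, *Rspo2* and *Rspo3* were listed at 0 in every library. The plot by role shows calls in both directions among receptors, membrane inhibitors, cytoplasmic and nuclear genes, and targets.

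**Figure D4:**
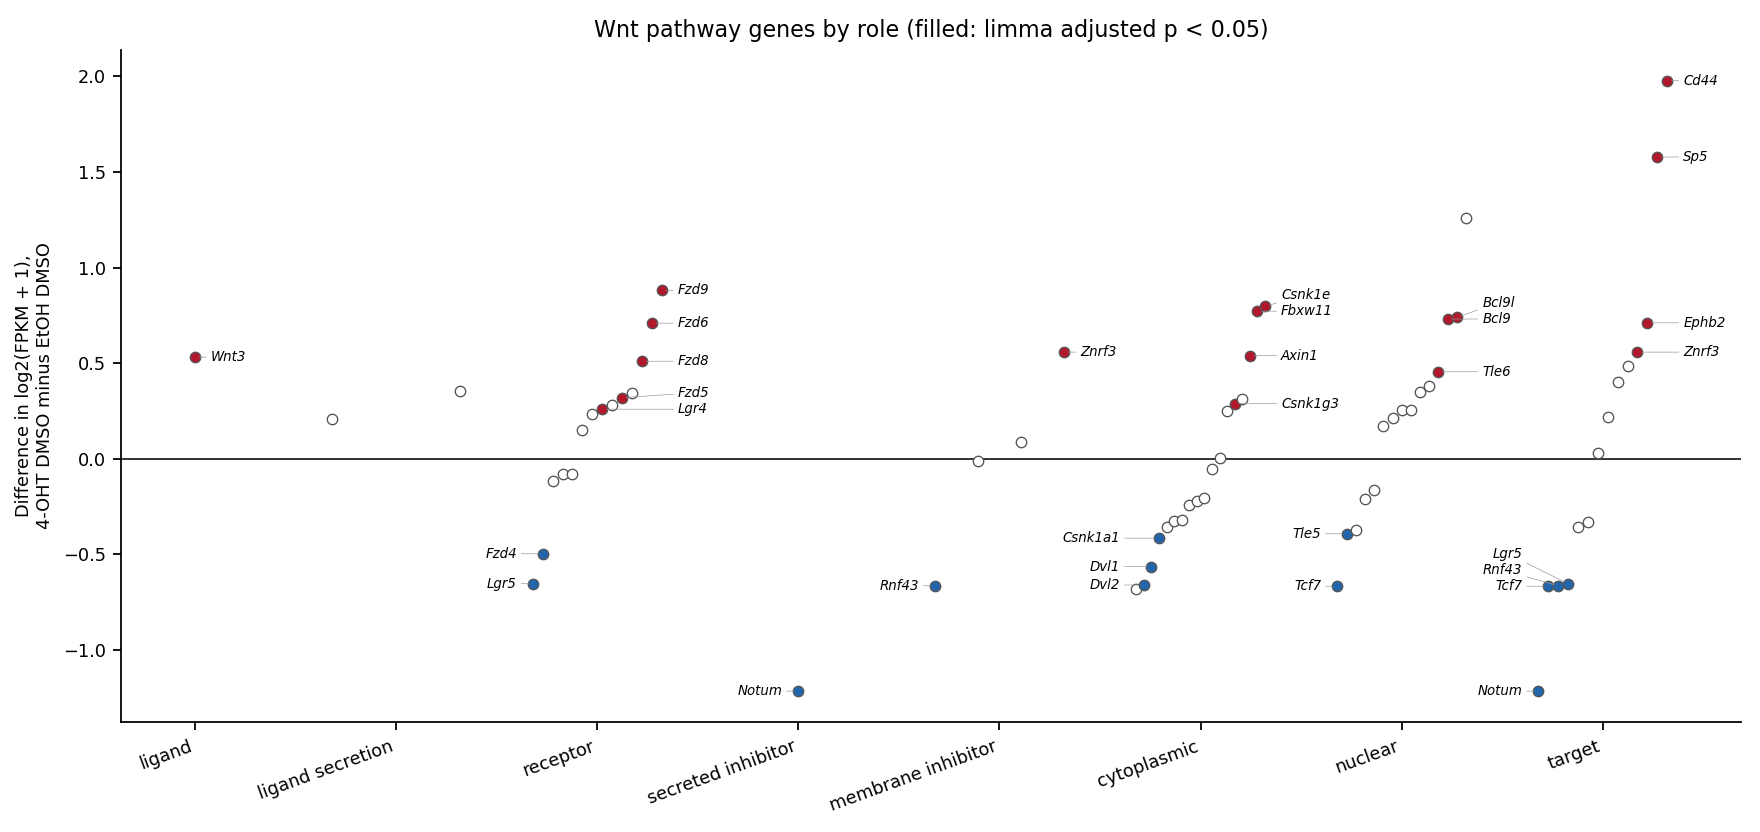
Difference in log2(FPKM + 1) between 4-OHT DMSO and EtOH DMSO for each tested Wnt pathway gene, by role, 1 point per gene. Filled points have an adjusted p under 0.05 and carry their symbols, and a gene in 2 roles is drawn in each.

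Of 18 receptor genes, 14 were tested, 5 were higher in 4-OHT DMSO and 2 lower. *Fzd9*, a Frizzled receptor gene, had 0.373 and 0.223 FPKM with EtOH DMSO, 0.114 and 0.189 with EtOH Nec-1, 1.34 and 1.43 with 4-OHT DMSO, and 1.15 with 4-OHT Nec-1. *Fzd6* had 1.63 and 1.52, then 1.29 and 1.61, then 3.60 and 2.86, and 2.33 FPKM in the same order of groups. Both were higher in every 4-OHT library than in every EtOH library, and *Fzd9* passed the filter through the 4-OHT libraries alone. Their log2 differences in 4-OHT DMSO were 0.88 (SE 0.14, limma, Benjamini-Hochberg adjusted p = 0.00581) for *Fzd9* and 0.71 (SE 0.14, adjusted p = 0.0124) for *Fzd6*. That of *Fzd9* ran from 0.72 to 1.93 over the alternatives. *Fzd6* missed the threshold in 1 of 15 alternatives, without EtOH DMSO replicate 2.

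*Lgr5* encodes a receptor for R-spondin, marks crypt stem cells and is itself a target. Its FPKM was 1.26 and 1.52 with EtOH DMSO, 0.729 and 0.710 with EtOH Nec-1, 0.565 and 0.468 with 4-OHT DMSO, and 0.408 with 4-OHT Nec-1. It passed the filter through the EtOH DMSO libraries alone, and the EtOH Nec-1 libraries lay between these and the 4-OHT libraries. Its fall of 0.65 on the log2 scale in 4-OHT DMSO (SE 0.13, limma, Benjamini-Hochberg adjusted p = 0.0128) passed in all 12 alternatives that kept it. Over these the log2 difference of *Lgr5* ran from −1.27 to −0.61. *Fzd4* ran from 1.86 to 2.47 FPKM in EtOH DMSO and from 1.07 to 1.47 in the other 5 libraries. Its log2 difference in 4-OHT DMSO was −0.50 (SE 0.15, limma, Benjamini-Hochberg adjusted p = 0.0468), a call that held in 7 of 15 alternatives, with an adjusted p from 0.0145 to 0.164. It was lost when either replicate of EtOH DMSO, of EtOH Nec-1 or of 4-OHT DMSO was left out, with no filter on low values, and in the 4 compared libraries alone.

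In the cytoplasm, 18 of 22 genes were tested, 4 were higher in 4-OHT DMSO and 3 lower. *Csnk1e*, a casein kinase gene, had 4.35 and 4.56 FPKM with EtOH DMSO, 3.78 and 4.16 with EtOH Nec-1, 8.37 and 8.57 with 4-OHT DMSO, and 7.89 with 4-OHT Nec-1. *Fbxw11*, which encodes a subunit of the ubiquitin ligase for β-catenin, had 13.0 and 15.0, then 13.2 and 13.6, then 24.8 and 24.4, and 20.8 FPKM in that order. *Dvl2*, which encodes a Dishevelled protein that relays the signal from Frizzled, had 2.91 and 3.51, then 2.62 and 2.46, then 1.63 and 1.69, and 1.59 FPKM. In each of these 3 genes the 4-OHT libraries stood clear of the EtOH libraries with or without Nec-1, the first and the second of them higher and *Dvl2* lower. The log2 differences in 4-OHT DMSO were 0.80 for *Csnk1e*, 0.77 for *Fbxw11* and −0.66 for *Dvl2* (SE 0.09, 0.09 and 0.12), and the limma, Benjamini-Hochberg adjusted p of 0.00234, 0.00277 and 0.00883 passed under all 15 alternatives. *Dvl1* ran from 17.8 to 21.7 FPKM in the EtOH libraries and from 12.1 to 14.4 in the 4-OHT libraries, a log2 difference in 4-OHT DMSO of −0.56 (SE 0.12, limma, Benjamini-Hochberg adjusted p = 0.0171), and of 15 alternatives, with an adjusted p from 0.00580 to 0.0679, it missed the threshold in 2, with no filter on low values and without EtOH DMSO replicate 2.

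Of 19 nuclear genes, 15 were tested, 3 were higher in 4-OHT DMSO and 2, *Tcf7* and *Tle5*, lower. *Bcl9* and *Bcl9l* encode related co-activators of β-catenin. *Bcl9* had 3.52 and 4.57 FPKM with EtOH DMSO, 4.18 and 4.30 with EtOH Nec-1, 7.51 and 7.15 with 4-OHT DMSO, and 8.29 with 4-OHT Nec-1. *Bcl9l* had 2.56 and 2.96, then 3.64 and 2.93, then 5.80 and 4.79, and 7.48 FPKM in that order. Both were highest in the 4-OHT Nec-1 library and higher in all 3 4-OHT libraries than in all 4 EtOH libraries. Their log2 differences in 4-OHT DMSO were 0.73 (SE 0.12, limma, Benjamini-Hochberg adjusted p = 0.00794) for *Bcl9* and 0.74 (SE 0.14, adjusted p = 0.0113) for *Bcl9l*, and *Bcl9l* missed the threshold in 1 of 15 alternatives, without EtOH DMSO replicate 1 (0.0574, the highest). *Tle5*, a member of the family of Groucho co-repressors that lacks most of their length, ran from 46.0 to 56.3 FPKM in the EtOH libraries and from 39.0 to 40.2 in the 4-OHT libraries, a log2 difference in 4-OHT DMSO of −0.39 (SE 0.10, limma, Benjamini-Hochberg adjusted p = 0.0268). Its call held in 8 of 15 alternatives, with an adjusted p from 0.00639 to 0.0704, and was lost with no filter on low values, in the 4 compared libraries alone, without EtOH DMSO replicate 2 and without either replicate of EtOH Nec-1 or of 4-OHT DMSO.

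The 17 listed targets, of which 14 were tested, split evenly: 4 were higher in 4-OHT DMSO (*Znrf3*, *Ephb2*, *Sp5* and *Cd44*) and 4 were lower (*Notum*, *Tcf7*, *Rnf43* and *Lgr5*). *Cd44* encodes a surface glycoprotein of crypt cells. Its FPKM was 3.85 and 4.06 with EtOH DMSO, 2.65 and 2.88 with EtOH Nec-1, 18.0 and 19.0 with 4-OHT DMSO, and 8.10 with 4-OHT Nec-1. *Sp5*, which encodes a transcription factor, had 0.834 and 0.578, then 0.505 and 0.421, then 4.43 and 3.75, and 2.49 FPKM in that order. Both genes were highest in 4-OHT DMSO, and the 4-OHT Nec-1 library lay between that group and the EtOH libraries. *Sp5* passed the filter through the 4-OHT libraries alone. The log2 differences in 4-OHT DMSO were 1.98 for *Cd44* (SE 0.09, limma, Benjamini-Hochberg adjusted p = 0.000321) and 1.58 for *Sp5* (SE 0.14, adjusted p = 0.00121), and passed under all their alternatives. Over these that of *Sp5* ran from 1.42 to 2.39. *Notum* and *Lgr5* passed the filter through EtOH libraries alone, so the even split describes the list and supports nothing. Apart from *Sp5*, *Notum* and *Lgr5*, *Znrf3*, *Ephb2* and *Cd44* were called higher and *Tcf7* and *Rnf43* lower in the same libraries.

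Markers of Paneth, goblet and enteroendocrine cells moved with 4-OHT as well. Of all tested genes 24.5% were higher in 4-OHT DMSO and 16.7% lower, and the counts of markers stand beside these shares. All 10 Paneth markers were tested and 9 were higher in 4-OHT DMSO (*Lyz2* was not). None of the 10 was listed at 0 throughout, and *Defa24* was the most abundant. Their summed FPKM was 9494 and 8614 with EtOH DMSO, 10098 and 9875 with EtOH Nec-1, 23614 and 23490.1 with 4-OHT DMSO, and 17399 with 4-OHT Nec-1. All 7 goblet markers were higher. *Tff3* was the most abundant of them in 6 of the 7 libraries and *Spink4* in 4-OHT DMSO replicate 2, with sums of 2160.4 and 1967 with EtOH DMSO, 2198 and 2252 with EtOH Nec-1, 3282 and 3837 with 4-OHT DMSO, and 2875 with 4-OHT Nec-1. All 6 enteroendocrine markers were higher. *Gip* was the most abundant of them in 5 of the 7 libraries and *Chgb* in EtOH Nec-1 replicate 1 and in 4-OHT Nec-1, with sums of 363 and 376 with EtOH DMSO, 364 and 411 with EtOH Nec-1, 813 and 961 with 4-OHT DMSO, and 743 with 4-OHT Nec-1. In all 3 lists the 4-OHT libraries lay above the EtOH libraries in summed level, and under either scaling 9 Paneth, 5 goblet and 6 enteroendocrine markers were still higher and 0 lower. The tuft list had 1 of 4 genes tested, *Avil*, which was higher, though not under either scaling. Of the 3 tuft markers below the filter, Dclk1 and Pou2f3 were lower in all 3 4-OHT libraries (0.567 to 0.580 and 0.422 to 0.473 FPKM) than in all 4 EtOH libraries (0.801 to 0.935 and 0.478 to 0.778), and Trpm5 overlapped. The tuft list thus had no single direction.

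Of the 6 stem cell markers, which share *Axin2*, *Lgr5* and *Ascl2* with the lists above, 3 were lower in 4-OHT DMSO (*Smoc2*, *Olfm4* and *Lgr5*), and 4 were lower under either scaling. *Slc12a2* was the most abundant in every library, none was listed at 0 throughout, and the sums were 76.4 and 75.0 with EtOH DMSO, 57.2 and 57.0 with EtOH Nec-1, 69.7 and 47.3 with 4-OHT DMSO, and 41.3 with 4-OHT Nec-1. These sums overlapped between EtOH and 4-OHT libraries. Without *Slc12a2* they did not, running from 32.6 to 47.8 in the EtOH libraries and from 14.0 to 29.1 in the 4-OHT libraries. Taken singly, *Slc12a2* and *Ascl2* overlapped, and *Slc12a2* was the only 1 of the 6 with a log2 difference above 0 in 4-OHT DMSO (0.17, not passed). *Smoc2*, *Olfm4*, *Lgr5* and *Axin2* were lowest in the 3 4-OHT libraries. Of 7 tested enterocyte markers (8 listed), 1 was higher and 4 were lower, and of 7 proliferation markers 2 were lower (*Pcna* and *Top2a*). Beside 24.5% of all tested genes higher and 16.7% lower, the 2 of 7 do not set the proliferation list apart. The 4 of 7 lower enterocyte markers are 57.1%, and 5 of 7 were lower under either scaling. This list is short and was not tested as a set. Of 6 epithelial markers 5 were higher, 2 of them under median centring and 3 under upper quartile scaling, and neither the 1 tested fibroblast marker nor the 1 tested immune marker passed, apart from *Itgam*, lower under median centring. The part of these cell types in the differences of the Wnt genes was not tested.

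EtOH Nec-1 against EtOH DMSO, which shares the EtOH DMSO libraries with the comparison above, asks what Nec-1 does without 4-OHT. By limma with Benjamini-Hochberg adjustment, 28 of all tested genes passed (0.22%) and 0 of the 9 Wnt genes did. With a library left out the first count was 13 and 14 (EtOH DMSO replicate 1 and 2), 10 and 9 (EtOH Nec-1 replicate 1 and 2) and 79 (either 4-OHT DMSO replicate), and the second was 0 in each. At an unadjusted p under 0.05 there were 2 of 9, *Ctnnb1* and *Tcf7*, beside 13.3% of all genes. By groups that do not overlap, 0 of 9 were higher (beside 10.5% of all genes) and 5 of 9 were lower: *Axin2*, *Rnf43*, *Ctnnb1*, *Tcf7* and *Myc*, beside 39.1%. The log2 difference was −0.46 for *Ctnnb1* (SE 0.17, limma, Benjamini-Hochberg adjusted p = 0.357) and −0.40 for *Tcf7* (SE 0.12, adjusted p = 0.308). For the other 7 genes it lay between −0.33 (*Myc*) and 0.21 (*Notum*), and the median of the 9 was −0.19 beside −0.09 for all tested genes. Of the 63 tested pathway genes 0 passed in this comparison. Beside the 13.3% of all tested genes, 12 of the 63 had an unadjusted p under 0.05 (limma). By role, where a gene can count in 2 roles, these were 7 of 14 targets, 4 of 14 receptors, 3 of 15 nuclear genes and 0 of 18 cytoplasmic genes. The median log2 difference of the targets was −0.36, and these short lists were not compared by a test. Of the marker lists only the enterocyte list held a call, *Apoa4*, which was lower.

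With 4-OHT, Nec-1 was added in 1 library, so its values have no replicate, and its differences from either pair of libraries are given with no p-value. This library shares its 4-OHT DMSO partners with the first comparison. It lay outside both 4-OHT DMSO libraries in 5 of 9 genes, where 74.8% of all tested genes did. *Rnf43*, *Tcf7* and *Tcf7l2* were above both (beside 25.5% of all genes), by 0.20, 0.56 and 0.17 on the log2 scale, counted from the 4-OHT DMSO mean. *Notum* and *Ctnnb1* were below both (beside 49.3%), *Ctnnb1* by a log2 difference of −0.40 and *Notum* listed at 0. *Axin2*, *Znrf3*, *Wnt3* and *Myc* lay between the 4-OHT DMSO libraries. *Cd44* and *Sp5* were below both, with log2 differences of −1.10 and −0.54.

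4-OHT under Nec-1 was read by setting the same library beside the EtOH Nec-1 libraries, which have no library in common with the comparison of 4-OHT DMSO with EtOH DMSO. All 9 genes lay outside both EtOH Nec-1 libraries, as did 88.3% of all tested genes: 5 above (*Znrf3*, *Wnt3*, *Tcf7*, *Tcf7l2* and *Myc*, beside 50.4%) and 4 below (*Axin2*, *Rnf43*, *Notum* and *Ctnnb1*, beside 38.0%). Log2 differences from the mean of EtOH Nec-1 were 0.72 for *Znrf3*, 0.40 for *Wnt3*, 0.30 for *Tcf7*, 0.26 for *Tcf7l2* and 0.40 for *Myc*. They were −0.13 for *Axin2*, −0.22 for *Rnf43* and −0.14 for *Ctnnb1*. The sizes depend on the scaling: under median centring the difference was 0.15 for *Tcf7* and −0.28 for *Axin2*, with the signs of these 8 unchanged under both scalings and the pseudocount of 0.1. Of the 5 genes called in 4-OHT DMSO against EtOH DMSO, 4 lay on the same side here, beside 94.4% of all called genes, and *Tcf7* lay on the other. The difference between the effects of Nec-1 with and without 4-OHT, fitted as an interaction in limma that gives the single 4-OHT Nec-1 library the spread of the other groups, passed for 7 of all tested genes (0.0551%) and for 0 of the 9, and 1 of the 9, *Tcf7*, had an unadjusted p under 0.05, beside 8.34% of all genes.

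The 5 genes whose pattern was most like that of *Axin2* over the 7 libraries, among 2251 tested genes with an SD of at least 0.5 on the log2 scale, were *Qdpr*, *Gm5481*, *Gm23123*, *5330426L24Rik* and *Gm16143*. Their Pearson's r ran from 0.896 to 0.929 and their Spearman's rho from 0.679 to 0.929, on log2(FPKM + 1). The SD of *Axin2* itself was 0.185, so genes that vary as little as *Axin2* were not among the 2251. *Qdpr* had 42.6 and 87.8 FPKM with EtOH DMSO, 48.5 and 44.4 with EtOH Nec-1, 48.6 and 26.9 with 4-OHT DMSO, and 26.9 with 4-OHT Nec-1. Like *Axin2*, it was highest in EtOH DMSO replicate 2. Among the other Wnt genes *Rnf43* was most like *Axin2* (r of 0.885) and *Tcf7l2* least (r of −0.830). These are the extremes of many values over 7 libraries that fall into 4 groups, so they describe the pattern and carry no p.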

How the data were processed

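RNA-seq of 7 organoid libraries in 4 groups was used. Per the submitters' processing notes, reads were aligned to mm10 with HISAT2 2.1.0 and quantified with StringTie 1.3.3b, and the authors deposited FPKM per Ensembl gene. The study's 2 CUT&Tag samples were not analysed. Of 54838 identifiers, 54723 had a symbol and 102 repeated one. limma 3.58.1 (R 4.3.3) with a mean-variance trend was fitted to log2(FPKM + 1) of the 12702 genes that reached 1 FPKM in 2 libraries or more, with 1 mean per group, Benjamini-Hochberg adjustment over all of them and a threshold of 0.05. The fit was tested on simulated data. Other values used matplotlib 3.10.9, scipy 1.17.1, pandas 2.3.3 and numpy 2.4.6 in Python 3.11.15. FPKM summed to between 450207 and 498712 per library. Counts are unknown, and the spacing of the lowest values put depth at 0.853 to 1.04 times that of EtOH DMSO replicate 1. The members and lists were chosen with earlier results of these data known. Named genes are the members, *Mettl3*, the 2 largest called rises and falls per role that kept their direction in every pairing of libraries, and the 5 genes most like *Axin2*. Other names beside small counts were added after values were seen. Alternatives were median centring, upper quartile scaling, limma without the trend, 1 FPKM in every library, no filter on low values, a pseudocount of 0.1, the replicate number as a block, only the 4 libraries compared, an added fold threshold of 1 log2 unit, and each library left out. Promoter windows are from RefSeq (GRCm38.p6).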

Additional observations from a re-analysis of the deposited data

Results flagged for a closer look

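*Rnf43* and *Tcf7* were lower with Nec-1 in both EtOH libraries and higher with Nec-1 in the 4-OHT library, each beyond both libraries of the DMSO group. Of all tested genes, 39.1% were lower in this way with EtOH and 25.5% higher in this way with 4-OHT. The share of genes that did both was not counted. For *Rnf43*, the log2 difference with Nec-1 in 4-OHT minus that in EtOH was 0.44 (SE 0.20, limma interaction, Benjamini-Hochberg adjusted p = 0.639), which did not pass. For *Tcf7* it was 0.96 (SE 0.20, limma interaction, Benjamini-Hochberg adjusted p = 0.231), which did not pass either. The 4-OHT side of both rests on 1 library, whose spread is assumed to be that of the other groups. Both genes were picked because their values went opposite ways, so these p-values describe them and support nothing.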

How the results depend on the processing

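In 4-OHT DMSO against EtOH DMSO, 5237 genes passed, with 1319 under an added fold threshold and 3650.0 to 5239 with a library left out. The 5 of 9 Wnt genes (41.2% of all genes) became 3 of 10 with no filter (15.9%), 2 of 6 at 1 FPKM in every library (43.1%), 1 of 9 with the fold threshold (10.4%), 4 of 9 with the replicate block (37.0%), where *Wnt3* was lost, and 2 to 5 with a library left out (29.0% to 41.6%). The 2 of 6 follow from the filter itself, which removes *Notum*, *Znrf3* and *Wnt3*. For the others the cause was not tested. In EtOH Nec-1 against EtOH DMSO, 28 genes passed, with 43 under upper quartile scaling, 8 with no filter, 79 with only the 4 libraries, 19 with the replicate block, and 9 to 79 with a library left out, and 0 Wnt genes passed in every one of these. Replicate numbers did not pair the libraries across groups (r of deviations from −0.0402 to 0.00646). Of the 4-OHT Nec-1 library, 5 Wnt genes lay outside both 4-OHT DMSO libraries, and 9 with either of these left out, since any gene differs from a single library. Median centring gave 6 and upper quartile scaling 7. The 9 genes outside both EtOH Nec-1 libraries stayed 9 under both scalings and the pseudocount of 0.1, alternatives chosen after seeing the data. Sizes did not hold as well: of the named genes' differences from EtOH Nec-1 under these, 48 moved by more than the spread between replicates, 18 did not and 0 reversed.

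Of the named genes' log2 differences in 4-OHT DMSO over all alternatives, 287 kept direction and side of the threshold, 44 lost the call, 5 gained it and 1 reversed, *Ctnnb1* without 4-OHT DMSO replicate 1 (from −0.48 to 0.051 with a library left out). In EtOH Nec-1, 325 held and 12 reversed, each with an adjusted p of 0.669 or more. Under median centring these were *Znrf3* (0.024), *Wnt3* (0.085), *Fzd6* (0.024) and *Fbxw11* (0.041), and under upper quartile scaling *Wnt3* (0.038) and *Fbxw11* (0.042). Those with a library left out were *Wnt3* (−0.085 to 0.057), *Tcf7l2* (−0.015 to 0.33), *Fzd6* (−0.17 to 0.022), *Fbxw11* (−0.15 to 0.037) and *Bcl9* (−0.089 to 0.21). The libraries whose removal reversed them were those of EtOH DMSO for *Wnt3*, *Tcf7l2* and *Fbxw11* (replicate 2) and *Bcl9* (replicate 1), and those of EtOH Nec-1 for *Fzd6* (replicate 1) and *Wnt3* (replicate 2). In 4-OHT Nec-1 against 4-OHT DMSO, 11 held under median centring, 8 moved by more than the spread between replicates and 3 reversed. Under upper quartile scaling 12 held, 8 moved and 2 reversed, and with the pseudocount of 0.1 16 held and 6 moved. Those reversed were *Lgr5* (0.0079), *Csnk1e* (0.022) and *Dvl2* (0.076) under median centring, and *Csnk1e* (0.028) and *Dvl2* (0.044) under upper quartile scaling. The cause was not tested. *Axin2*, *Znrf3*, *Wnt3*, *Myc*, *Fzd4* and *Dvl1* lay between the 4-OHT DMSO libraries in 4-OHT Nec-1. The sign of their difference therefore turns with the 4-OHT DMSO library that is left out.

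Leaving out a library of a pair leaves a lone library, which is assumed to vary like the other groups. Scaling from counts was not run, since the files hold FPKM. Near 1 FPKM the pseudocount shrinks log2 differences, and with counts unknown no counting error can be given for *Notum*, *Znrf3*, *Wnt3* or *Nkd1*. With 2 libraries a group and no replicate of 4-OHT Nec-1, a difference that missed the threshold is not shown to be absent.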
